A study of Mus musculus with 18 samples.

Results

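The genes described here are 9 transcription regulators of brown fat thermogenesis: Ppargc1a, Ppargc1b, Prdm16, Ebf2, Zfp516, Esrra, Esrrg, Irf4 and Nrip1. They were chosen by name, as the rows of the deposited count table that carry these symbols, and all 9 were found among its 54347 genes. A filter on low counts left 14949 genes to test, and 8 of the 9 members passed it. Esrrg did not pass.

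The libraries were polyadenylated RNA from wt1-SAM cells, an immortalised mouse brown preadipocyte line that stably carries the CRISPR activation system SAM. The cells of all 18 libraries were differentiated with rosiglitazone in the medium, were reverse transfected on day 4 with an antisense oligonucleotide containing locked nucleic acid (LNA) and were harvested on day 7. The oligonucleotide was the non-targeting ctrlA, or LNA1 or LNA2, both of which target the long non-coding RNA Gm15551. With each oligonucleotide, cells were either left unstimulated or given 1 µM isoproterenol, a β-adrenergic agonist, for 24 h before harvest. The 6 groups held 3 libraries each, numbered 2, 3 and 4 in every group. The cells are a single line grown in culture with a PPARγ agonist, so the groups model brown adipocytes and not the tissue. Nothing in the labels says that the libraries came from separate cultures, and p-values measure only the spread between these libraries.

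Noradrenaline acts on brown adipocytes through β-adrenergic receptors, cAMP and protein kinase A, and CREB bound at its motif is a well known route from that signal to Ppargc1a. The product, PGC-1α, is a coactivator without a DNA-binding domain of its own. It docks on nuclear receptors such as PPARγ and ERRα (the product of Esrra) and on IRF4, and raises the transcription of Ucp1 and of mitochondrial genes. PRDM16, EBF2 and ZFP516 are factors that establish and hold the brown cell identity, while NRIP1 (RIP140) is a corepressor of the same nuclear receptors.

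The sequences of the oligonucleotides are shown because every LNA comparison rests on them. They come from the sequence list of the study, in which ctrlA was taken to be the oligonucleotide named Negative control A, and are written 5′ to 3′. Capitals mark the bases that pair with the Gm15551 transcript, and ctrlA has none.
ctrlA: aacacgtctatacgc
LNA1: GATGACTGAGATTAGA
LNA2: AAGTAGCACGGCGTTG
In the 535-base transcript of Gm15551 the site of LNA1 covers bases 347 to 362 and that of LNA2 bases 241 to 256. Among 14937 genes whose spliced transcripts were searched, 0 held a whole site for any of the 3 oligonucleotides, so no spliced transcript of a member holds one. Introns were not searched. The longest run of pairing bases between an oligonucleotide and a member was that of LNA1 with Esrra, with 10 of its 16 bases in capitals here.
LNA1 on Esrra: GATGACTGAGattaga
The run lies at bases 1724 to 1733 of a 2489-base Esrra transcript. A run of at least 10 bases with LNA1 was present in 3.13% of the genes searched. It is a match of letters, and pairing was not measured.

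The promoter of Ppargc1a is shown because this gene had, of the members, the largest share of its variance tied to stimulation. It is the stretch of 250 bases before the RefSeq start site, chr5:51567726-51567975 of GRCm38.p6, minus strand, and capitals mark the only copy of the short CREB motif TGACG, which lies on the opposite strand at bases −49 to −45.
Ppargc1a promoter: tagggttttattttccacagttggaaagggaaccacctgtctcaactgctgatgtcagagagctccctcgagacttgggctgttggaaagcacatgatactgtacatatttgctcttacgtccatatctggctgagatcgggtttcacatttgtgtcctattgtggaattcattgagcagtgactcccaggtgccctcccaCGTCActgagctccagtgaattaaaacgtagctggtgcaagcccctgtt
RefSeq promoter windows were at hand for 6 of the 9 members, namely Ppargc1a, Prdm16, Esrra, Esrrg, Irf4 and Nrip1, with 10 windows in all. Searched on both strands, TGACG was in 1 of the 10, that of Ppargc1a, and in 17.8% of all 32851 windows of the same length. The full CREB motif TGACGTCA, which contains the short motif, was in 0 of the 10 and in 1.55% of all windows. AAGGTCA, the extended motif of ERRα, was in 0 of the 10 and in 4.08% of all windows. These are matches of letters in a short window, and binding was not measured.

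Library totals ranged from 9167560 to 19723021 counts, and levels are given as CPM, the counts per 1e6 counts of library size scaled by the TMM method. A floor of 3 counts corresponds to 0.170 to 0.306 CPM. The 6 libraries numbered 2 stood apart from the other 12. A ribosomal RNA gene took 2.88 to 14.3% of their counts against 0.285 to 1.04%, and mitochondrial genes took 7.86 to 9.79% against 2.56 to 4.97%. Summed preadipocyte or fibroblast markers were at 111 to 192 CPM in them and at 176 to 329 CPM in the others, which followed Col1a1 (65.4 to 103 against 135 to 246 CPM), whereas Ly6a was higher in them (means of 41.0 and 14.9 CPM). Among the other 12, the stimulated LNA2 library numbered 3 stood apart from number 4 of its group, with a chi-square per degree of freedom over genes of 36.5, against 4.32 to 10.5 for the same pair in the other 5 groups. It had the lowest mitochondrial share of the 18 (2.56%). Brown adipocyte markers summed to 8775 to 22624 CPM over the 18 libraries, with Pparg at 116 to 205 CPM, but Dio2 was at or near 0 (0 to 0.340 CPM) and Ucp1 at 0.621 to 16.5 CPM. Of the markers of other cell types, Myf5 was at 0 in every library and Ptprc, Adgre1 and Kdr had 12, 4 and 3 counts over all libraries. Others of the same lists were present, with Cd68 at 7.83 to 42.4 CPM, Des at 3.82 to 12.9 CPM and Pecam1 at 1.59 to 3.82 CPM. Gm15551 itself had 2 to 14 counts per library with ctrlA, 1 to 12 with LNA1 and 1 to 13 with LNA2. These ranges overlap, so at this depth its counts do not check the LNA labels.

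To compare the members with each other, CPM was divided by the length of the merged exons in kb. Esrra stood highest, with a mean of 30.1 ± 9.47 CPM per kb (SD, n = 18), and lay above the next gene, Ppargc1b, in 18 of 18 libraries. Ppargc1b had 14.1 ± 5.16, Nrip1 11.3 ± 2.79, Zfp516 10.0 ± 3.74 and Ppargc1a 9.85 ± 2.44 CPM per kb. The order of these neighbours changed with the replicate number. In the libraries numbered 2, Ppargc1b lay below Nrip1 in 5 of 6 (means of 7.31 and 8.68 CPM per kb) and Zfp516 below Ppargc1a in 6 of 6 (6.97 and 10.2). In the other 12, Ppargc1b lay above Nrip1 in 11 (17.5 and 12.6) and Zfp516 above Ppargc1a in 11 (11.5 and 9.67). Nrip1 exceeded Zfp516 in 9 of 18 libraries. Ebf2 followed at 4.19 ± 1.22 CPM per kb, below Ppargc1a and above Irf4 in every library. Irf4 (0.720 ± 0.295) and Prdm16 (0.678 ± 0.426) were the lowest of the genes tested. Irf4 was the higher in 6 of the 6 libraries numbered 2, at 0.324 to 0.851 against 0.0611 to 0.176 CPM per kb without overlap, and Prdm16 in 9 of the other 12 (means of 0.963 and 0.820).

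**Figure D1:**
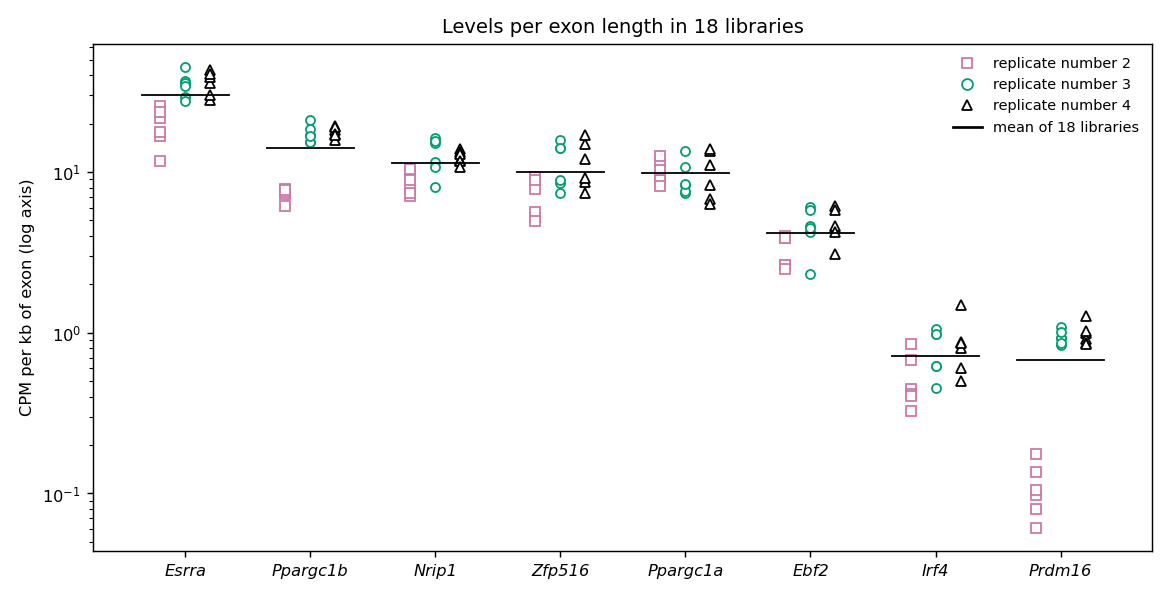
Level of the 8 members that passed the filter, as CPM per kb of exon on a log axis, with a point for each of 18 libraries marked by replicate number and a line at the mean. Esrra (mean 30.1) lies above all others, and the libraries numbered 2 lie far below the rest for Prdm16 and Ppargc1b but not for Ppargc1a.

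Esrrg, which encodes ERRγ, an estrogen-related receptor that is abundant in oxidative tissues, was at the limit of detection. It had 6 counts in all, with 14 of 18 libraries at 0. The counts were 3, 1, 1 and 1, in the unstimulated ctrlA libraries numbered 3 and 4, the stimulated ctrlA library numbered 3 and the stimulated LNA2 library numbered 3. All 4 lie at or below 3 counts, and no fold is given. An exact two-sided permutation test of stimulated against unstimulated libraries gave p = 0.55.

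The first comparison asked which regulators differ between stimulated and unstimulated cells, averaged over the 3 oligonucleotides (9 libraries against 9). Ppargc1a and Zfp516 rose, by 1.48-fold and 1.73-fold. Zfp516 encodes a zinc finger activator of Ucp1 that is itself induced by the β-adrenergic signal. These were 2 of the 8 members tested, where 3.2% of all genes tested were called (2.02% higher, 1.18% lower) in edgeR's quasi-likelihood test at a Benjamini-Hochberg adjusted p under 0.05 and an absolute log2 fold change above 0.5. The same model was also fitted with the replicate number as a block. There 4 of the 8 were called, where 7.0% of all genes were (3.87% higher, 3.13% lower). The 2 added were Irf4, higher, and Ebf2, lower.

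Ppargc1a had 63.1, 54.3 and 54.4 CPM in the unstimulated ctrlA libraries numbered 2, 3 and 4, then 58.7, 48.6 and 45.0 CPM with LNA1 and 54.1, 50.3 and 41.9 CPM with LNA2. Stimulated libraries had 77.6, 89.4 and 89.3 CPM with ctrlA, 83.1, 70.8 and 92.0 CPM with LNA1 and 67.5, 55.5 and 73.3 CPM with LNA2. With each oligonucleotide, every stimulated library lay above every unstimulated one, a separation seen in 10.2%, 11.0% and 8.38% of all genes with ctrlA, LNA1 and LNA2. The log2 fold change was 0.56 ± 0.09 (SE), with an adjusted p of 0.00147 in edgeR, and with the replicate block 0.56 ± 0.07 and 2.07e-05. Within pairs of the same oligonucleotide and number it was higher in 9 of 9, by 0.14 to 1.03 on the log2 scale. The smallest of these differences was that of LNA2 number 3 and the largest that of LNA1 number 4.

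Zfp516 had 43.6, 71.1 and 71.6 CPM in unstimulated ctrlA cells, 46.5, 73.7 and 76.0 CPM with LNA1 and 40.7, 61.6 and 60.8 CPM with LNA2. After isoproterenol it had 64.4, 117 and 123 CPM with ctrlA, 76.9, 132 and 139.8 CPM with LNA1 and 74.0, 117 and 100.2 CPM with LNA2. The library numbered 2 was the lowest of its group in all 6 groups, and the groups did not overlap with LNA1 or LNA2 but overlapped with ctrlA. Over the 3 oligonucleotides the log2 fold change was 0.79 ± 0.18 (adjusted p = 0.0181, edgeR), and with the replicate block 0.78 ± 0.05 (4.66e-09). Its pair differences were the most even of the members, from 0.56 to 0.93 on the log2 scale, and higher in 9 of 9. A gene higher in all 9 pairs was seen in 8.4% of all genes tested.

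Irf4 encodes an interferon regulatory factor that partners PGC-1α at thermogenic genes. It had 1.59, 2.24 and 2.45 CPM in unstimulated ctrlA cells, 2.04, 4.79 and 3.97 CPM with LNA1 and 1.98, 3.05 and 2.94 CPM with LNA2. After isoproterenol it had 2.20, 3.02 and 4.29 CPM with ctrlA, 4.17, 5.16 and 7.31 CPM with LNA1 and 3.32, 4.79 and 4.23 CPM with LNA2. The groups overlapped with ctrlA and LNA1 and not with LNA2, and each value rests on 24 to 92 counts. Averaged in this way, the log2 fold change was 0.62 ± 0.19 with an adjusted p of 0.0954 in edgeR, which did not pass, and 0.62 ± 0.12 with 0.000936 with the replicate block, which did. It was higher in 9 of 9 pairs, by 0.11 to 1.03 on the log2 scale.

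Ebf2 encodes an early B-cell factor that marks brown and beige precursors and recruits PPARγ to brown-selective genes. It had 27.5, 41.7 and 42.3 CPM in unstimulated ctrlA cells, 27.1, 40.0 and 40.3 CPM with LNA1 and 27.0, 31.3 and 29.4 CPM with LNA2. After isoproterenol it had 18.4, 31.8 and 31.2 CPM with ctrlA, 18.4, 29.5 and 31.9 CPM with LNA1 and 17.2, 16.1 and 21.4 CPM with LNA2. At each number the stimulated LNA2 library was the lowest of the 6, and only with LNA2 did the groups not overlap. The log2 fold change was −0.52 ± 0.15 (adjusted p = 0.062, edgeR), short of the limit, and −0.53 ± 0.08 (6.45e-05) with the replicate block, where Ebf2 fell. It was lower in 9 of 9 pairs, which held for 6.91% of all genes tested. The blocked call was lost, at −0.50, −0.48 and −0.47, without stimulated ctrlA number 2, unstimulated LNA2 number 2 or stimulated LNA2 number 3, since the fold change then no longer passed its limit.

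Nrip1 was also lower in 9 of 9 pairs, by 0.04 to 0.94 on the log2 scale. Its 9 unstimulated libraries had a lowest value of 103, a median of 152 and a highest of 187 CPM, and its 9 stimulated libraries 81.1, 123 and 147 CPM. The ranges overlapped. The largest of these differences was that of LNA2 number 3. Its log2 fold change was −0.39 ± 0.15 with an adjusted p of 0.209 in edgeR, and −0.39 ± 0.07 with 0.000674 in the blocked fit (−0.33 with 0.000229 without stimulated LNA2 number 3). The latter passed the p limit but not the limit on fold change, so Nrip1 was not called.

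Esrra, Ppargc1b and Prdm16 were called in neither fit. For Esrra the log2 fold change with the block was 0.20 ± 0.07, with an adjusted p of 0.0291 in edgeR and a size under the limit, and it was higher in 7 of 9 pairs. The stimulated minus unstimulated log2 fold change of Prdm16 was −0.19 ± 0.63 without and −0.24 ± 0.11 with the block (adjusted p = 0.967 and 0.139), and it was lower in 8 of 9 pairs. That of Ppargc1b was −0.07 ± 0.30 and −0.08 ± 0.06 (adjusted p = 0.974 and 0.326), with 4 of 9 pairs higher. Without the limit on fold change, 6 of the 8 members passed in the blocked fit, where 26.4% of all genes did.

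**Figure D2:**
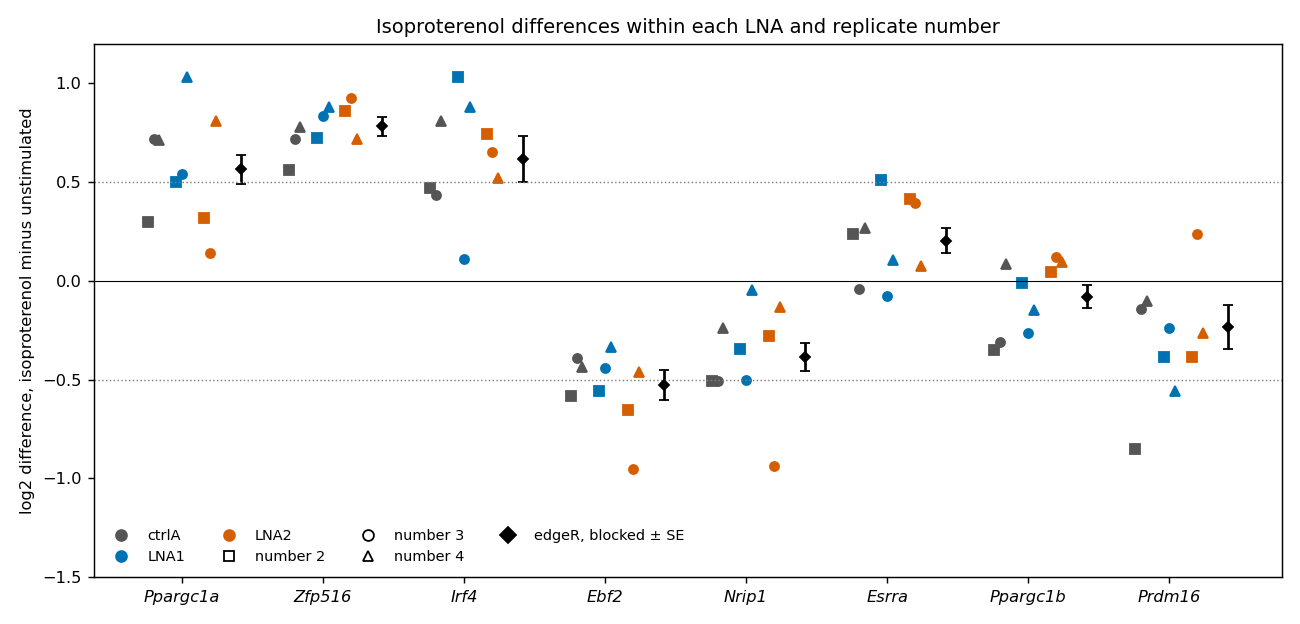
Difference in log2 CPM between the stimulated and the unstimulated library of the same oligonucleotide (colour) and replicate number (shape) for each member, with the blocked edgeR estimate ± SE as a diamond and dotted lines at the limits of ±0.5. All 9 points lie above 0 for Ppargc1a, Zfp516 and Irf4 and below 0 for Ebf2 and Nrip1.

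Markers of other cell types moved with stimulation as well. Summed skeletal muscle markers had 6.61 to 10.6 CPM in unstimulated and 11.4 to 18.7 CPM in stimulated libraries, and 3 of the 3 tested of 6 were called higher in the blocked fit (Des, Mb and Acta1). Summed macrophage markers, of which Cd68 made up 91.9 to 99.2%, had 8.17 to 28.4 against 12.0 to 44.3 CPM, with 1 of the 2 tested of 4 higher (Cd68). Preadipocyte or fibroblast markers had 111 to 247 against 148 to 329 CPM, with 1 of the 5 tested of 7 higher (Ly6a), and 0 of 1 endothelial gene tested was called. Brown adipocyte markers had 12089 to 22624 against 8775 to 16846 CPM, with Ucp1 and Cidea higher and Adipoq lower of 7 tested of 8. Fabp4, a fatty acid binding protein, made up 77.9 to 92.0% of this sum, and without it the list had 1682 to 2340 against 1332 to 2013 CPM. The part of these shifts in the members' values was not tested, and in bulk RNA fewer cells of a type cannot be told apart from less RNA per cell.

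Next, the isoproterenol difference was examined with each oligonucleotide alone (3 libraries against 3). Without the block, 0 of 8 members were called with ctrlA, LNA1 or LNA2, where 0.488%, 0.702% and 0.395% of all genes were. At an unadjusted p under 0.05 in edgeR, 2, 2 and 3 members passed (5.43%, 6.94% and 5.99% of all genes), and DESeq2 called 1 member in at least 1 of the 3 (1.14%, 1.53% and 1.01%). With the replicate block, 2 were called with ctrlA (4.03% of all genes), 2 with LNA1 (5.04%) and 2 with LNA2 (4.25%). Zfp516 was among them each time, with log2 fold changes of 0.69 ± 0.08, 0.82 ± 0.08 and 0.84 ± 0.08. Ppargc1a rose with ctrlA (0.58 ± 0.12, adjusted p = 0.00644) and LNA1 (0.69 ± 0.12, 0.00171). With LNA2 its log2 fold change was 0.42 ± 0.12 with an adjusted p of 0.0443, under the limit on fold change, and 0.51 (adjusted p = 0.020, edgeR with the block), which was called, without stimulated LNA2 number 3. The call with ctrlA was lost without stimulated ctrlA number 3 (0.49, adjusted p = 0.0513 in edgeR with the block) or without all libraries numbered 2 (0.71, 0.0542). Of the 3 oligonucleotides, Ebf2 was called lower with LNA2 alone (−0.69 ± 0.13, adjusted p = 0.00397), and had −0.46 ± 0.13 with ctrlA and −0.43 ± 0.13 with LNA1.

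Whether the isoproterenol difference itself depended on the oligonucleotide was tested by interaction terms, and 0 of 8 members passed in any of the 3, with or without the block, as did 0.0% of all genes. In edgeR, 0 members had an unadjusted p under 0.05, where 0.702 to 5.4% of all genes did over these fits, and DESeq2 called 0 members. For Ppargc1a the difference with LNA2 minus that with LNA1 was −0.27 on the log2 scale in the blocked fit, with a 95% interval of −0.64 to 0.11. For Ebf2 the difference with LNA2 minus that with ctrlA was −0.23 (−0.62 to 0.16), and for Zfp516 it was 0.15 (−0.09 to 0.39). These intervals leave room for differences of the size of the isoproterenol effect on Ppargc1a and Ebf2, and those of Zfp516 are narrower.

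**Figure D3:**
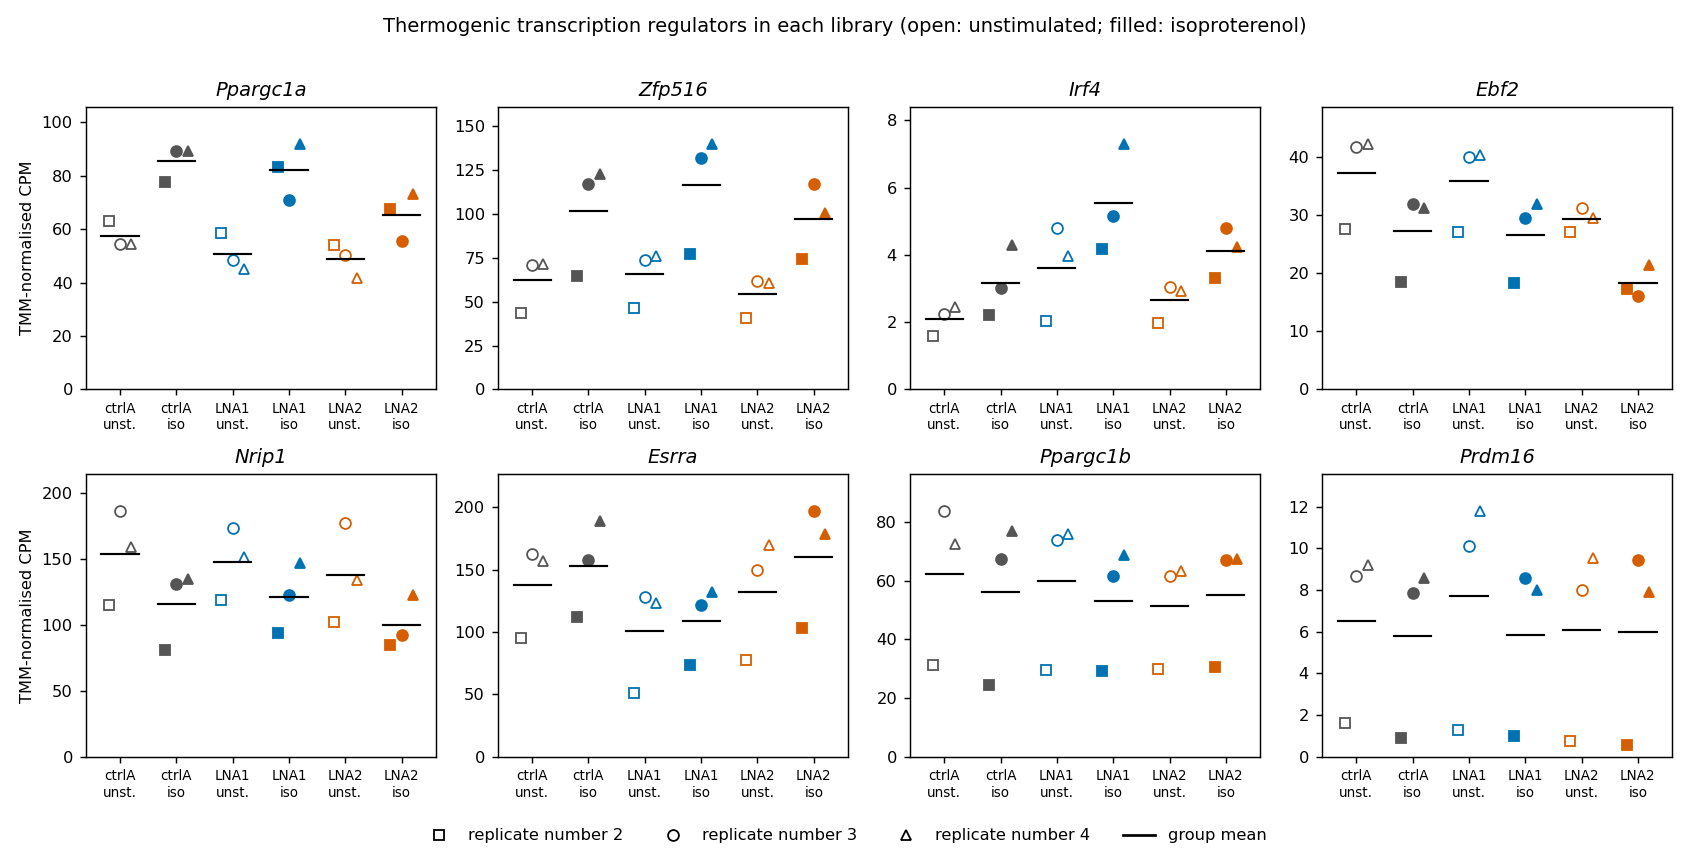
TMM-normalised CPM of each tested member in every library, by oligonucleotide (colour), stimulation (open or filled) and replicate number (shape), with a line at the mean of each group of 3. Every filled point of Ppargc1a lies above every open point of the same oligonucleotide, and the libraries numbered 2 are lowest in every group for 6 of the 8 members, the others being Ppargc1a and Ebf2.

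The following comparison asked whether the regulators differ when Gm15551 is targeted. With LNA1 against ctrlA, averaged over stimulation (6 libraries against 6), 0 of 8 members were called without the block, where 0.442% of all genes were, and 1 had an unadjusted p under 0.05 in edgeR (6.01% of all genes). DESeq2 called 0 as well. With the replicate block 2 were called, where 2.43% of all genes were. They were Irf4, higher by 1.73-fold, and Esrra, lower at 0.703-fold. With the block 3 members had an unadjusted p under 0.05 in edgeR (22.2% of all genes). The third was Zfp516, which had 0.14 ± 0.06 on the log2 scale (adjusted p = 0.157) and was not called, with 6 of 6 pairs above 0 by 0.05 to 0.26.

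Esrra had 95.1, 162 and 157 CPM in unstimulated ctrlA libraries numbered 2, 3 and 4, and 51.4, 128 and 123 CPM with LNA1. In stimulated cells it had 112, 158 and 189 CPM with ctrlA and 73.4, 122 and 132 CPM with LNA1. With LNA2 the values were 77.6, 149.9 and 169.8 CPM unstimulated and 103, 197 and 179 CPM stimulated. At every number and in both states the LNA1 library was the lowest of the 3 oligonucleotides, although ranges that mix the numbers overlap. In the libraries numbered 2, where its difference was −0.89 unstimulated and −0.61 stimulated, a ribosomal RNA gene took 14.3% and 7.44% of the counts with LNA1 against 5.80% and 3.61% with ctrlA. At the other numbers the difference was −0.51 to −0.34, with shares of 0.380 to 1.04% and 0.285 to 0.564%. The part of this share in the values of Esrra was not tested. The log2 fold change with LNA1 was −0.47 ± 0.27 (adjusted p = 1, edgeR) without and −0.51 ± 0.08 (0.00112) with the block, and it was lower in 6 of 6 pairs, which held for 12.1% of all genes. Without the 6 libraries numbered 2 it was −0.37 (adjusted p = 0.0519 without and 0.0395 with the block), so Esrra was called in neither fit. The blocked call was also lost without unstimulated or stimulated ctrlA number 2, unstimulated LNA1 number 2 or stimulated LNA1 number 3, with −0.47, −0.44, −0.44 and −0.49. Exons of Esrra overlap those of Trmt112 on the opposite strand, and whether the counting used the strand is not given in the sources used here. Trmt112 itself had a log2 fold change of 0.01 with LNA1 (adjusted p = 0.97, edgeR with the block).

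Irf4, whose values are given above, was higher with LNA1 than with ctrlA in 6 of 6 pairs, by 0.36 to 1.10 on the log2 scale. A gene higher in all 6 was seen in 7.91% of all genes tested. The log2 fold change was 0.80 ± 0.24 (adjusted p = 0.282, edgeR) without and 0.79 ± 0.14 (0.00331) with the block. Without the libraries numbered 2 it was 0.87 (0.0458 and 0.0427). Summed macrophage markers, which are given because IRF4 is also made in immune cells, lay between 8.17 and 24.7 CPM in the controls, between 11.5 and 30.1 CPM under LNA1 and between 14.0 and 44.3 CPM under LNA2. Ptprc, which marks all leukocytes, had 12 counts over all 18 libraries, and 0 of 2 macrophage genes tested were called with LNA1. Of the preadipocyte or fibroblast markers, Pdgfra was the 1 of the 5 tested of 7 that was called higher with either LNA without the block. Its mean was 13.7 ± 1.97 CPM under LNA1, 12.1 ± 2.17 CPM under LNA2 and 7.41 ± 0.488 CPM in the controls (SD over 6 libraries). Summed, this list lay between 111 and 265 CPM in the controls, between 115 and 248 CPM under LNA1 and between 131 and 329 CPM under LNA2. The part of these markers in the members' values was not tested.

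Within a single state the LNA1 calls were less firm. Without the block, 0 members were called in unstimulated or stimulated cells (0.0% and 0.0134% of all genes), with 1 member at an unadjusted p under 0.05 in edgeR in each (2.86% and 3.82% of all genes) and 0 called by DESeq2. With the block Esrra was called in unstimulated cells (−0.51 ± 0.11, adjusted p = 0.0456, where 0.602% of all genes were called). In stimulated cells Esrra (−0.51 ± 0.11, 0.0242) and Irf4 (0.82 ± 0.20, 0.0362) were called, where 1.45% were. These 3 calls were lost when all libraries numbered 2 were left out, with −0.32 (adjusted p = 0.464, edgeR with the block) for Esrra unstimulated, −0.43 (0.145) for Esrra stimulated and 0.80 (0.237) for Irf4 stimulated. They were also lost when single libraries were left out, in 14, 5 and 8 of 18 such fits, over which the values ran from −0.63 to −0.36, −0.62 to −0.38 and 0.71 to 0.96.

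With LNA2 against ctrlA, 0 of 8 members were called without the block, where 1.42% of all genes were, and also 0 with the block, where 5.53% were. In edgeR, 2 members without and 3 with the block had an unadjusted p under 0.05 (10.6% and 34.4% of all genes), and DESeq2 called 0 with either. Ebf2 and Ppargc1a passed the p limit in the blocked fit with changes smaller than 0.5. Ebf2 had a log2 fold change of −0.44 ± 0.09 (adjusted p = 0.00337, edgeR with the block) and Ppargc1a of −0.31 ± 0.09 (0.019). Without the fold limit these were 2 of 8, where 20.6% of all genes passed. Both were lower in 6 of 6 pairs, as were 12.1% of all genes, by 0.03 to 0.98 for Ebf2 and 0.11 to 0.69 for Ppargc1a on the log2 scale. The largest difference of each was that of the stimulated number 3 pair, and without stimulated LNA2 number 3 the values were −0.36 (adjusted p = 0.00367) for Ebf2 and −0.27 (0.0313) for Ppargc1a in edgeR with the block. In unstimulated cells alone, 0 members were called without the block (0.194% of all genes) and 0 with it (2.79%), with 0 and 3 at an unadjusted p under 0.05 in edgeR (4.71% and 18.1%) and 0 called by DESeq2. There Ebf2 had a log2 fold change of −0.32 ± 0.13 (adjusted p = 0.173, edgeR with the block) and Ppargc1a of −0.23 ± 0.12 (0.355). In stimulated cells alone, 0 members were called without the block (0.207% of all genes), 2 had an unadjusted p under 0.05 in edgeR (7.12%) and DESeq2 called 0. With the block Ebf2 was called lower (−0.55 ± 0.14, adjusted p = 0.0139), where 5.51% of all genes were called. This call was lost without stimulated LNA2 number 3 (−0.39, adjusted p = 0.0584) or stimulated ctrlA number 3 (−0.47, 0.0967). The macrophage genes Cd68 and Csf1r, 2 of the 2 tested of 4, were also called higher with LNA2 in the blocked fit, as was the fibroblast marker Ly6a, and their part in these values was not tested. Without the libraries numbered 2, Ebf2 was called lower with LNA2 over both states (−0.58, adjusted p = 0.00317, edgeR). Its mean pair difference was −0.06 at number 2, −0.70 at number 3 and −0.54 at number 4. LNA1 and LNA2 were compared with the same ctrlA libraries, so the 2 sets of values are not independent.

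LNA2 was also set against LNA1. Averaged over stimulation, 0 of 8 members were called without the block (0.923% of all genes) and 0 with it (4.11%). In edgeR, 1 and 6 members had an unadjusted p under 0.05 (9.2% and 29.7% of all genes), and DESeq2 called 0 with either. Without the fold limit 3 of 8 passed in the blocked fit, where 15.4% of all genes did. They were Esrra (0.48 ± 0.08, adjusted p = 0.000867), Ebf2 (−0.40 ± 0.09, 0.00923) and Zfp516 (−0.25 ± 0.06, 0.00885). The first was higher and the others lower with LNA2 in 6 of 6 pairs, as were 11.4% and 10.9% of all genes. For Ebf2 the mean difference was −0.05 at number 2, −0.61 at number 3 and −0.52 at number 4. Irf4 did not pass but was also lower with LNA2 than with LNA1 in 6 of 6 pairs, at −0.79 to −0.04. Against ctrlA it was higher with LNA2 in 5 of 6, at −0.02 to 0.67. In unstimulated cells 0 were called without (0.0334% of all genes) or with the block (2.05%), with 0 and 3 members at an unadjusted p under 0.05 in edgeR (4.23% and 16.3%) and 0 called by DESeq2. In stimulated cells the blocked fit called Esrra higher (0.55 ± 0.11, adjusted p = 0.00939) and Ebf2 lower (−0.53 ± 0.14, 0.0292) with LNA2 than with LNA1, where 3.43% of all genes were called. Without the block 0 were called there (0.187%), 0 had an unadjusted p under 0.05 in edgeR (5.57%) and DESeq2 called 0. Both calls were lost without stimulated LNA1 number 3 (Esrra 0.51, adjusted p = 0.0579, Ebf2 −0.50, 0.105), stimulated LNA2 number 3 (0.49, 0.0285 and −0.37, 0.12) or stimulated LNA1 number 4 (0.55, 0.0533 and −0.46, 0.156).

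**Figure D4:**
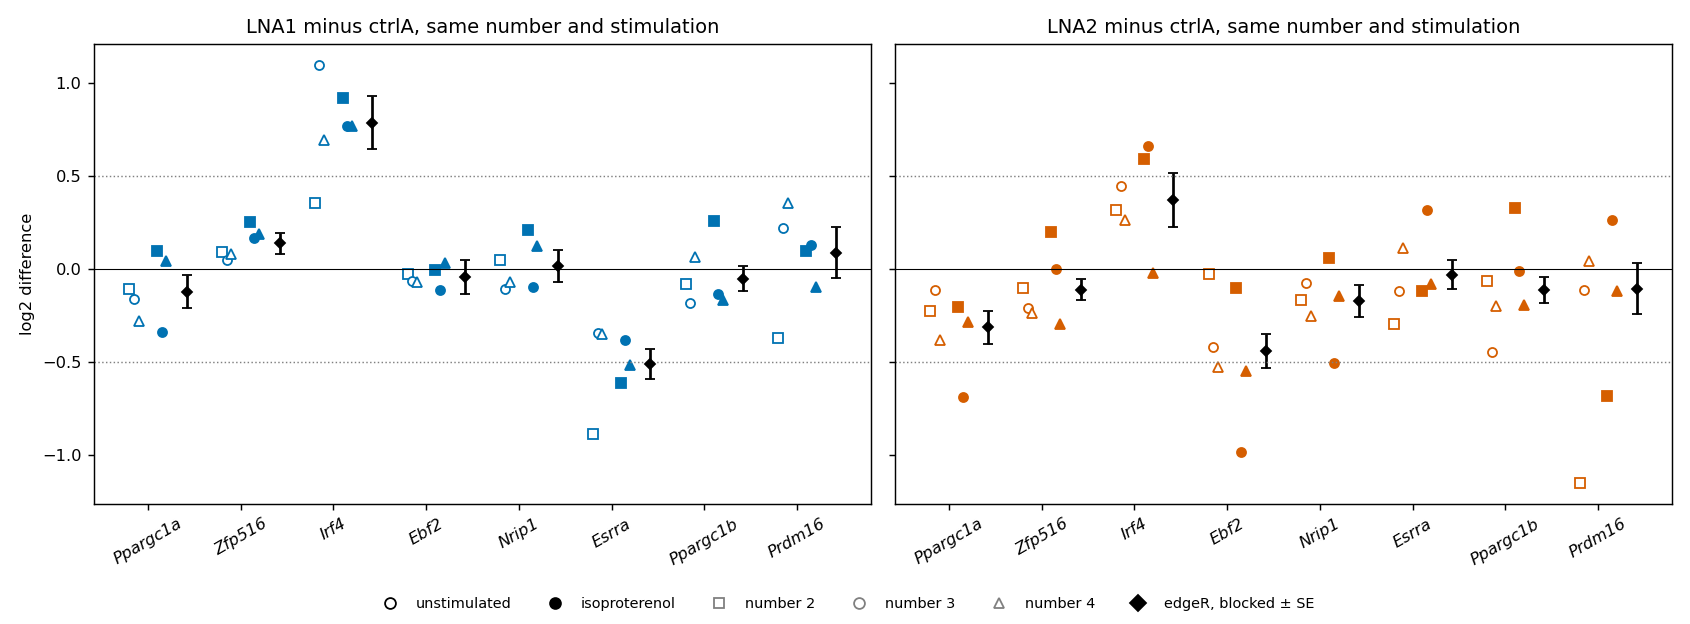
Difference in log2 CPM between LNA1 (left) or LNA2 (right) and ctrlA at the same replicate number (shape) and stimulation (open or filled) for each member, with the blocked edgeR estimate ± SE averaged over stimulation as a diamond and dotted lines at ±0.5. With LNA1 all 6 points lie below 0 for Esrra and above 0 for Irf4 and Zfp516, and with LNA2 all 6 lie below 0 for Ppargc1a and Ebf2.

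In the joint test of the 6 groups, 0 of 8 members passed an adjusted p under 0.001 without the block, where 0.455% of all genes did, and the smallest adjusted p was that of Ppargc1a (0.0157, edgeR). In this test 4 members had an unadjusted p under 0.05 (11.3% of all genes), and DESeq2 called 1 (3.72%). With the block 5 passed (Zfp516, Ppargc1a, Ebf2, Esrra and Irf4), where 8.93% of all genes did. Without the libraries numbered 2 only Zfp516 of the 8 passed in the blocked fit. When single libraries were left out in turn, Zfp516 passed in 18 of 18 fits, Ppargc1a in 17, Ebf2 in 15, Irf4 in 5 and Esrra in 4.

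The members also differed among themselves in what their variance followed. In the balanced design the variance of log2 CPM can be split by factor. The replicate number took 96.3% for Prdm16 and 95.7% for Ppargc1b, then 68.5% for Esrra, but 3.16% for Ppargc1a, against a median of 49.4% over all genes tested. Stimulation took 66.5% for Ppargc1a and 54.3% for Zfp516, against a median of 4.32%, and the LNA took its largest shares for Irf4 (30.8%), Esrra (21.5%) and Ebf2 (20.3%), against 8.26%.

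**Figure D5:**
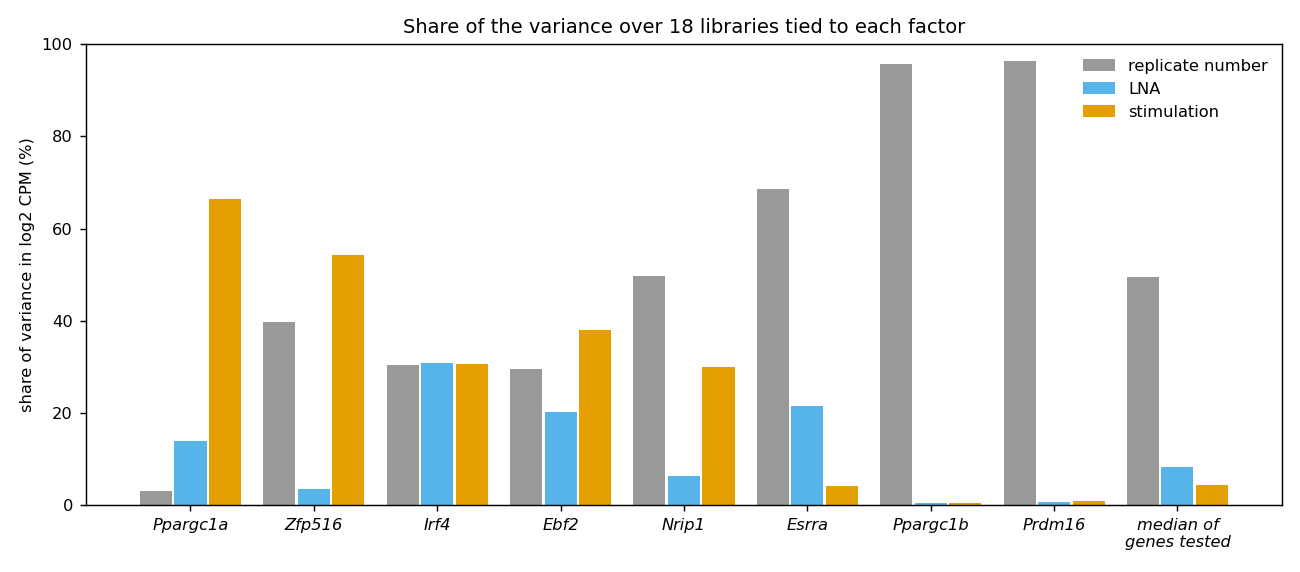
Share of the variance of log2 CPM over 18 libraries, in %, that lies between replicate numbers, between LNAs and between stimulation states, for each tested member and as the median over all genes tested. Stimulation has the largest share for Ppargc1a (66.5%), and the replicate number has nearly all of it for Prdm16 and Ppargc1b.

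Prdm16, the zinc finger factor that directs precursors to the brown fate, was at 0.570 to 1.65 CPM in the 6 libraries numbered 2 (6 to 29 counts) and at 7.85 to 11.8 CPM in the other 12 (84 to 136 counts). The sets did not overlap, and the mean difference of −3.01 on the log2 scale lay at the 0.0268th percentile of all genes tested. Ppargc1b, whose product PGC-1β shares the coactivator role of PGC-1α in mitochondrial biogenesis, was at 24.5 to 31.1 against 61.5 to 83.7 CPM, a difference of −1.26 at the 2.59th percentile. Esrra had 51.4 to 112 against 122 to 197 CPM (−0.89). Ppargc1a had 54.1 to 83.1 against 41.9 to 92.0 CPM and a difference of 0.12. No label says what the number stands for, and the part of the ribosomal and mitochondrial shares in these differences was not tested. For Prdm16 the SE of the isoproterenol difference fell from 0.63 to 0.11 on the log2 scale once the number was in the model.

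The members' likeness was described by Pearson's r over the 18 libraries after the mean of each replicate number was removed. These points share the same 6 groups and libraries, so r reflects the design as well. Ebf2 and Nrip1 had r = 0.88, Ppargc1a and Zfp516 0.85, Zfp516 and Irf4 0.75, and Zfp516 and Nrip1 −0.65. The genes most like each member among 13169 compared were Cdc42bpa, Topbp1 and Slc25a51 for Ppargc1a (r = 0.96, 0.96 and 0.94), and Olfr1033, Kirrel and Ank3 for Zfp516 (0.98 each). They were Aldh6a1, Jarid2 and Hsd17b7 for Ebf2 (0.96 each), Trpc1, Lrrc58 and Bnip3 for Nrip1 (0.96, 0.96 and 0.95), and Slc25a12, Trpv2 and Slc39a14 for Irf4 (0.92, 0.92 and 0.91). For Esrra they were Macrod1, Fam177a and Ring1 (0.93, 0.92 and 0.91), for Ppargc1b Eif4ebp2, Dot1l and Akap1 (0.84, 0.81 and 0.79), and for Prdm16 Cst3, Ankrd9 and Gm16091 (0.82, 0.80 and 0.79).

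Genes around the members were read from 5 lists. Of 19 targets of PGC-1 and ERR, 16 were tested and 3 rose with isoproterenol without the block, namely Ucp1, Cidea and Pdk4, and 0 fell, where 3.2% of all genes were called without and 7.0% with the block. Ucp1, the uncoupling protein of brown fat, went from 1.12 ± 0.346 to 12.9 ± 2.25 CPM (SD, n = 9 each), with a log2 fold change of 3.51 ± 0.17. Cidea, a lipid droplet protein, had 1.27 ± 0.20, and Pdk4, a kinase that restrains pyruvate oxidation, 0.65 ± 0.11. With the block Perm1 (0.81 ± 0.16) and Cpt1b (0.69 ± 0.07), the mitochondrial carnitine palmitoyltransferase of oxidative tissue, were called too. The median log2 fold change over the 16 was 0.27, against −0.0021 over all genes. With LNA2 the median was −0.24, against −0.02 over all genes, and 0 of the 16 were called without and 2 with the block, where 1.42% and 5.53% of all genes were. These were Cpt1b (−0.52 ± 0.08) and Acadm (−0.51 ± 0.07), a dehydrogenase of fatty acid oxidation. With LNA1 it was −0.14, with 0 called in either fit (0.442% and 2.43% of all genes).

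Of 20 co-regulators and partners, 0 were called with isoproterenol without the block and 1 with it, Cebpb (0.62 ± 0.08), a partner of PRDM16. For this list and those after it, the shares of all genes called were 3.2% without and 7.0% with the block. Of 16 nuclear receptors and partners 12 were tested, and Vdr, the vitamin D receptor, rose from 19.2 ± 2.70 to 68.2 ± 15.5 CPM (SD, n = 9 each), with a log2 fold change of 1.83 ± 0.14. Nr1d1, a receptor that represses transcription in the circadian clock, was called with the block alone (0.81 ± 0.07). Of 10 repressors of the brown programme, Twist1, which binds and restrains PGC-1α, rose by 0.52 ± 0.10 on the log2 scale, and Id1 was called with the block alone (0.52 ± 0.08). Of 10 mitochondrial biogenesis factors 0 were called in either fit, and their median log2 fold change was 0.04. With LNA1 or LNA2, 0 genes of these 4 lists were called in either fit. Of all genes, 0.442% and 2.43% were called with LNA1 and 1.42% and 5.53% with LNA2, without and with the block.

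By the annotation of GRCm38 (GENCODE M21, counted from 1), all members are protein-coding. Ppargc1a lies at chr5:51454250-51567726 (minus strand), Zfp516 at chr18:82910663-83005314 (plus), Irf4 at chr13:30749226-30766976 (plus) and Ebf2 at chr14:67233292-67430918 (plus). Nrip1 lies at chr16:76287400-76373827, Esrra at chr19:6910977-6921813, Ppargc1b at chr18:61298136-61400431 and Prdm16 at chr4:154316125-154636873, all on the minus strand. Exons of Prdm16 and Ebf2 overlap those of B230104I21Rik and Gm10860 on the opposite strand, which had 7 and 16 counts over all libraries.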

How the data were processed

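RNA-seq libraries of 18 samples in 6 groups of 3 were analysed. The authors deposited expected counts per gene (estimated counts, read here from 1 table), and these were rounded to whole numbers. Per the labels the genome was GRCm38. Gene models here came from GENCODE M21, and promoters from RefSeq GRCm38.p6. edgeR 4.0.16 (quasi-likelihood test, TMM, R 4.3.3) was fitted over all genes with at least 10 counts by filterByExpr (14949 of 54347), with a term per group, and p-values were adjusted by the Benjamini-Hochberg method. A call needed an adjusted p under 0.05 and an absolute log2 fold change above 0.5. The replicate numbers paired the samples in the data, since all 45 correlations of deviations between libraries of the same number were at least 0.24 (median 0.43), against a median of −0.44 for 108 pairs of unequal number. The numbers' meaning is not in the labels. A second fit therefore held the number as a block. No libraries were identical. Libraries held 9167560 to 19723021 counts, whose floor of 3 counts covers counting error only. Alternatives were DESeq2 1.42.0, RLE scaling, no filter, no fold limit and leaving out libraries. Both edgeR fits were run for isoproterenol on counts simulated from the fits themselves, which cannot test their assumptions. Members and lists were chosen with earlier results of these data known. All members were named, with their 3 most alike genes and the listed genes that were called.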

Additional observations from a re-analysis of the deposited data

Results flagged for a closer look

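The isoproterenol difference of Ppargc1b took opposite directions with LNA1 and LNA2. In 3 of 3 LNA1 pairs the stimulated library was lower, by −0.26 to −0.01 on the log2 scale (mean −0.14), and in 3 of 3 LNA2 pairs it was higher, by 0.04 to 0.12 (mean 0.09). With ctrlA, 2 of 3 pairs were lower and 1 higher, at −0.35 to 0.09 (mean −0.19). The pattern was found by looking over all tested members and several pairs of comparisons. How many of all genes show it was not counted. The difference between the LNA1 and LNA2 means was 0.23. The interaction term with the replicate block gave 0.23 with a 95% interval of −0.06 to 0.53, an unadjusted p of 0.111 and an adjusted p of 0.947 in edgeR, so it did not pass.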

How the results depend on the processing

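For isoproterenol over all oligonucleotides 2 members were called, 4 with the replicate block, 4 with DESeq2, 4 with DESeq2 and the block, 4 without the libraries numbered 2, and 2 to 3 when single libraries were left out. For LNA1 against ctrlA 0 were called, 2 with the block in edgeR or DESeq2, 1 without number 2 and 0 in every fit without a single library. For LNA2 against ctrlA and LNA2 against LNA1 0 were called, 1 without number 2, and 0 in every fit without a single library. For isoproterenol within each oligonucleotide, members called in at least 1 of the 3 comparisons were counted. There 0 were called, 3 with the block, 1 with DESeq2, 3 with DESeq2 and the block, 3 without number 2, and 0 to 1 without single libraries. For the LNAs within each state, members called in at least 1 of the 6 comparisons were counted. There 0 were called, 3 with the block in edgeR or DESeq2, 2 without number 2 and 0 without single libraries. In the joint test 0 passed, 5 with the block, 1 with DESeq2, 6 with DESeq2 and the block, 1 without number 2 and 0 without single libraries. For the interactions every fit gave 0. Of the blocked counts, LNA1 against ctrlA went from 2 to 1 without number 2 and 1 to 2 without single libraries. LNA2 against ctrlA went from 0 to 1 without number 2, 2 with no fold limit and 0 to 1 without single libraries, and LNA2 against LNA1 from 0 to 1, 3 and 0 to 1. Without single libraries the blocked counts were 3 to 4 for isoproterenol, 3 to 5 within oligonucleotides and 1 to 4 for the LNAs within states. The blocked joint test went from 5 to 1 without number 2 and 2 to 5 without single libraries. The isoproterenol value of Ppargc1b, −0.07 and not called, ranged from −0.19 to 0.04 and turned positive without 4 single libraries (0.040, 0.019, 0.018 and 0.018). Over all genes, the counts called were 479 without and 1046 with the block for isoproterenol, 66 and 364 for LNA1, 213 and 826 for LNA2, 138 and 615 for LNA2 against LNA1, and 68 and 1335 in the joint test. In the same order, the shares of all genes called were 4.21%, 0.89%, 2.26%, 1.55% and 3.72% with DESeq2, and 6.63%, 2.3%, 4.9%, 3.84% and 19.1% with DESeq2 and the block. Without number 2 they were 4.85%, 1.2%, 4.93%, 2.96% and 0.741%, and 5.09%, 1.5%, 5.48%, 3.44% and 1.0% with the block. The shares that follow are for each comparison alone, whereas the counts of members above were over any of several. Within oligonucleotides the shares were 1.01 to 1.53% with DESeq2, 4.01 to 4.84% with DESeq2 and the block and 1.32 to 2.16% without number 2. For the LNAs within states they were 0.85 to 5.12% with DESeq2 and the block and 0.1 to 3.15% without number 2. The alternatives with the block and libraries left out together were added after seeing the data. The cause of these changes was not tested. The depth limits Irf4, Prdm16 in the libraries numbered 2 and Esrrg, which rest on few counts.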
